A study of Mus musculus with 6 samples.

Results

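The genes described here are those of the EGF family ligands and the ERBB receptors, 10 in all, of 29955 genes in the deposited RNA-seq table. They were chosen by symbol as the ligand genes Tgfa, Areg, Ereg, Hbegf, Btc, Egf and Nrg1 and the receptor genes Egfr, Erbb2 and Erbb3. RNA was sequenced from mouse embryo fibroblasts (MEFs) at passage 3, in 3 libraries labelled Rnf40+/+ and 3 labelled Rnf40-/-. Rnf40 encodes a subunit of the ligase that attaches ubiquitin to histone H2B. The conditional allele has loxP sites around exons 3 and 4 of Rnf40, and the recombinase was the tamoxifen-inducible Cre-ERT2 expressed ubiquitously from the Rosa26 locus. For the knockout, cells received 250 nM 4-hydroxytamoxifen (4-OHT) for 5 days and were grown without it for another 3 days. The inducible MEFs were grown from embryos homozygous for the loxP allele that carried the Cre transgene. It is not stated whether the sequenced cells labelled Rnf40+/+ were such MEFs without the deletion or came from wild-type embryos, nor whether they received 4-OHT, so loss of the gene and the treatment cannot be told apart. It is likewise not stated whether the libraries of a genotype came from separate embryos or cultures, and the p-values then measure only the spread between these libraries, which may be technical.

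The ERBB receptors are tyrosine kinases of the cell surface that dimerize when a ligand binds. EGF, TGFα and amphiregulin bind EGFR, while HB-EGF, betacellulin and epiregulin bind EGFR and ERBB4, and neuregulins bind ERBB3 and ERBB4; ERBB2 has no known ligand and acts as a dimer partner. The ligands are made as membrane-anchored precursors that metalloproteases release, and fibroblasts respond to them with proliferation and migration through the RAS-ERK and PI3K-AKT pathways.

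The values are normalized counts, that is, the reads of a gene divided by 1 size factor per library. The libraries held 17053436 to 26344170 reads on genes, and a gene with 3 reads had a normalized count of 2.40 to 3.58. Rnf40 itself was measured at 1278, 1195 and 1096 normalized counts in Rnf40+/+ MEFs and fell to 439.5, 519 and 487 in Rnf40-/- MEFs. The log2 fold change of Rnf40 was -1.30 (SE 0.09, adjusted p = 4.25e-07, limma with Benjamini-Hochberg adjustment), which leaves 40.5% of the Rnf40+/+ mean over the whole gene; the deleted exons were not measured apart. Of the 8 fibroblast markers, Col1a1, Col1a2 and Vim were each between 23760 and 128900 normalized counts in every library. Col3a1 was at 17100 to 34550 and Thy1 at 5949 to 26710, and the remaining markers were far lower, down to Lum at 66.1 to 247.6. The mean of Col1a2 fell from 116400 in Rnf40+/+ to 24170 in Rnf40-/- MEFs. The first Rnf40+/+ library stood apart from the other 2 of its genotype in several marker genes, which were picked out after their values were seen. Syt1 was at 114.6 normalized counts in it against 2.04 and 0.799, Snap25 at 39.4 against 2.04 and 3.99, Krt8 at 58.5 against 1.02 and 9.58, Tek at 114.6 against 11.2 and 16.0, and Des at 431.1 against 126.5 and 114.2. Of the members, only Egf had another call when the first Rnf40+/+ library was left out. The third Rnf40+/+ library stood apart in other markers, also picked out after their values were seen. Lyz2 was at 7440 normalized counts in it against 3945 and 4557, Tyrobp at 343.4 against 173.2 and 178.5, and Cd68 at 427.2 against 158.8 and 188.7. It also had the lowest Rnf40+/+ values of Tgfa, Areg, Ereg, Hbegf, Nrg1 and Egfr. Its Btc and Erbb2 values were the highest of that genotype, and Egf and Erbb3 were in between. Leaving out the third library changed the call of no member. In bulk RNA, fewer cells of a type and less RNA per cell cannot be told apart.

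All 10 members had enough reads to be tested with limma among 16378 genes. Of these members, Tgfa, Areg, Btc and Egfr were higher in Rnf40-/- MEFs at an adjusted p under 0.05, none was lower, and 6 did not pass. Over all genes tested 23.3% were higher and 24.1% were lower, so that 4 of 10 higher members stand beside a background of nearly 1 gene in 4. Under the stricter rule that also asks for an absolute log2 fold change above 1 and a mean above 15, Tgfa, Areg and Btc remained, beside 4.16% of all genes higher and 5.51% lower. Btc passed this fold limit narrowly, at 1.007, and was below it with a pseudocount of 10 (0.88), without the second Rnf40+/+ library (0.996) and without the first (0.973) or the second (0.98) Rnf40-/- library. The libraries of the genotypes did not overlap for 5 members, Egf besides the 4 named, and all 5 were on the higher side; over all genes tested 27.8% were higher without overlap and 28.7% lower. The median log2 fold change was 0.39 over the 10 members, 0.68 over the 7 ligands and 0.07 over the 3 receptors, while that of all genes tested was -0.0035, with quartiles of -0.355 and 0.318.

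**Figure D1:**
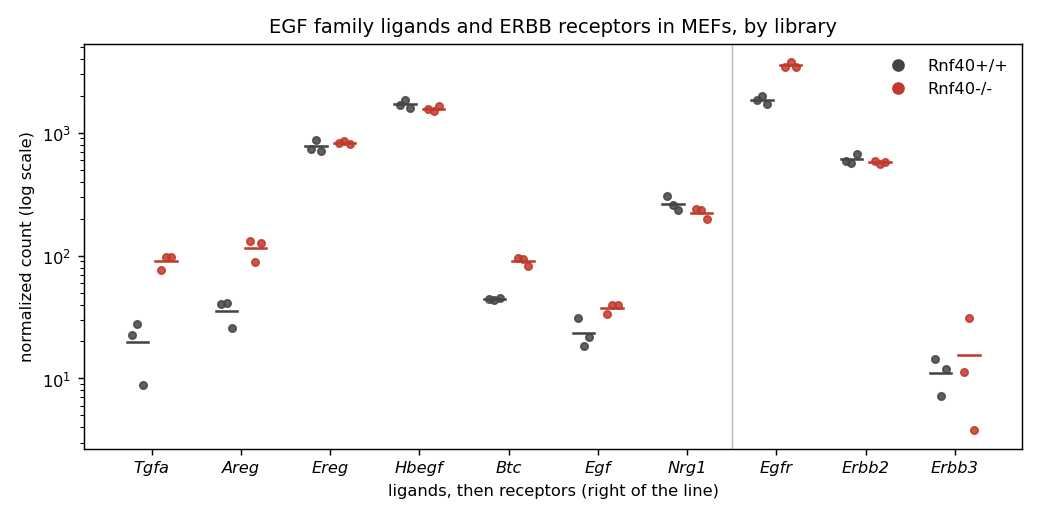
Normalized counts (log axis) of the 7 ligand and 3 receptor genes in each library. Each point is 1 library, grey for Rnf40+/+ and red for Rnf40-/-, and the short line is the mean of 3; the points of the genotypes are apart for Tgfa, Areg, Btc, Egf and Egfr and overlap for the other 5 genes.

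Tgfa, which encodes the EGFR ligand TGFα, had the largest fold change of the members. The Rnf40+/+ libraries gave 22.7, 27.5 and 8.78 normalized counts, and with Rnf40 deleted the values were 76.5, 98.1 and 97.3. Every Rnf40-/- library was above every Rnf40+/+ library, although the third Rnf40+/+ library was low even within its group. The mean was 19.7 ± 9.73 (SD, n = 3) in Rnf40+/+ and 90.6 ± 12.3 (SD, n = 3) in Rnf40-/- MEFs, a 4.61-fold difference, and the log2 fold change was 2.28 (SE 0.36, 95% interval 1.49 to 3.06, adjusted p = 0.00028, limma). Of all genes tested, 197 had a larger rise. The Rnf40+/+ means rest on 11 to 27 reads per library, and without the third Rnf40+/+ library the log2 fold change of Tgfa was 1.81.

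Areg encodes amphiregulin, another ligand of EGFR. It was measured at 40.6, 40.8 and 25.6 normalized counts in Rnf40+/+ and at 131.5, 88.7 and 126.5 in Rnf40-/- MEFs. The groups did not overlap, and the lowest Rnf40-/- library still lay above the highest Rnf40+/+ library. The mean went from 35.7 ± 8.74 to 115.6 ± 23.4 (SD, n = 3 each), a 3.24-fold difference, with a log2 fold change of 1.68 (SE 0.245, 95% interval 1.15 to 2.21, adjusted p = 0.000152, limma).

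Btc encodes betacellulin. In Rnf40+/+ MEFs it reached 44.2, 43.9 and 45.5 normalized counts, against 94.8, 93.9 and 83.1 in Rnf40-/- MEFs. The groups were well apart. The Rnf40+/+ values rest on 37, 43 and 57 reads, so their small spread is no measure of precision at such counts. The mean went from 44.5 ± 0.882 to 90.6 ± 6.53 (SD, n = 3 each), a 2.04-fold difference, and the log2 fold change was 1.01 (SE 0.186, 95% interval 0.60 to 1.41, adjusted p = 0.00084, limma).

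Egfr encodes the receptor that all 3 of these ligands bind. The normalized counts of Egfr were 1842, 2003 and 1722 in Rnf40+/+ and 3452, 3745 and 3451 in Rnf40-/- MEFs. The lowest Rnf40-/- value was far above the highest Rnf40+/+ value. The mean went from 1855 ± 141 to 3549 ± 169 (SD, n = 3 each), a 1.91-fold difference, with a log2 fold change of 0.94 (SE 0.0722, 95% interval 0.78 to 1.09, adjusted p = 1.03e-06, limma). Its standard error was the smallest among the members, and leaving out each library in turn gave 0.88 to 0.99.

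The promoters of the 4 genes that rose are shown so that the sequences at their starts can be compared, with the motif matches in capitals. They are RefSeq sequences of build GRCm38.p6, a later build than the mm9 of the deposited values, and run from 250 bases before the start site to 50 after it. The motifs searched on both strands were the cAMP response element TGACGTCA, the AP-1 site TGACTCA, the TATA box TATAAA, the GC box GGGCGG and the forkhead site TGTTTAC. Of 32817 promoters of this length, 1.79% held the cAMP response element, 5.2% the AP-1 site, 13.6% the TATA box, 35.6% the GC box and 3.65% the forkhead site.
Tgfa promoter, plus strand, chr6:86194972-86195271: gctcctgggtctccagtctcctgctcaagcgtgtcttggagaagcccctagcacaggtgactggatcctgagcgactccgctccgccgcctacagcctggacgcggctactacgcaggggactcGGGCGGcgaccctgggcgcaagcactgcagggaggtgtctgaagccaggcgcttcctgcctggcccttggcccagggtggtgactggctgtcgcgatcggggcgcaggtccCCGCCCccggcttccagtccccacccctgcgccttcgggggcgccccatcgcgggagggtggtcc
Areg promoter, plus strand, chr5:91139349-91139648: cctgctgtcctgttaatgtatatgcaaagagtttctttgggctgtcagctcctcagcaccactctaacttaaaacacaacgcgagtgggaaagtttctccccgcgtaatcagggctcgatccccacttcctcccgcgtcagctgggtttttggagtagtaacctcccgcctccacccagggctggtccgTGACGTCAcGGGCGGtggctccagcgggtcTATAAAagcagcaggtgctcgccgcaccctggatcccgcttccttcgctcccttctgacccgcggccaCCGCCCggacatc
Btc promoter, minus strand, chr5:91402945-91403244: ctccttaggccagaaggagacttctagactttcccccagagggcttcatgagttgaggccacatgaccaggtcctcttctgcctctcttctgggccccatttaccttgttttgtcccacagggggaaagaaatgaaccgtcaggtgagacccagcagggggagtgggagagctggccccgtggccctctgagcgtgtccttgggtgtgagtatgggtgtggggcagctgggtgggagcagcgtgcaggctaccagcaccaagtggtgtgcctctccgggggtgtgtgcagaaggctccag
Egfr promoter, plus strand, chr11:16751953-16752252: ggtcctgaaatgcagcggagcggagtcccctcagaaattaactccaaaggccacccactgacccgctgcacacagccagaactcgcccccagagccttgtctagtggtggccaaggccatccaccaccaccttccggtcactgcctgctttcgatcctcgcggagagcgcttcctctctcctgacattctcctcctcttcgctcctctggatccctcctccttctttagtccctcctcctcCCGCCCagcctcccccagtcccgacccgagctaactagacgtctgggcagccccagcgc
In Areg, the cAMP response element began 61 bases before the start site, a GC box 52 bases before it and the TATA box 31 bases before it, and another GC box began 37 bases after it on the opposite strand. The Tgfa window held 2 GC boxes, 126 and 15 bases before the start, the Egfr window held 1 at 9 bases before it, and the Btc window held none of the 5 motifs. The windows held 24 CpG dinucleotides for Tgfa, 21 for Areg, 15 for Egfr and 5 for Btc, where the median promoter held 7 (quartiles 3 and 20). The GC box, which 35.6% of all promoters of this length held, was thus in the Tgfa, Areg and Egfr windows. None of the 5 motifs searched was in all 4 windows. These matches are a description of letters, and binding at these sites was not measured here. Of the 10 members, 6 were matched to a window that was used here. The others besides these 4 were Erbb2, with 21 CpG and no motif, and Egf, with windows of 0 and 17 CpG, the latter with a forkhead match.

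Egf, the gene of epidermal growth factor, was separated between the genotypes but did not pass the test. Its normalized counts were 31.1, 18.4 and 21.6 in Rnf40+/+ and 33.7, 39.7 and 39.7 in Rnf40-/- MEFs. The gap between the highest Rnf40+/+ and the lowest Rnf40-/- library was small. The log2 fold change was 0.68 (SE 0.286, 95% interval 0.05 to 1.30) with an adjusted p of 0.0696 from limma, and without the first Rnf40+/+ library it was 0.88 with an adjusted p of 0.0282.

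Hbegf and Ereg, the genes of HB-EGF and epiregulin, had the highest levels per kb of exon among the ligand genes in both genotypes, as given below. Hbegf was measured at 1683, 1857 and 1585 normalized counts in Rnf40+/+ and at 1549, 1494 and 1660 in Rnf40-/- MEFs, and its log2 fold change was -0.12 (95% interval -0.29 to 0.04, adjusted p = 0.212, limma). Ereg was measured at 742.8, 875 and 713.9 and at 829, 855.8 and 814.8, with a log2 fold change of 0.11 (95% interval -0.09 to 0.30, adjusted p = 0.348, limma). For both genes the libraries of the genotypes overlapped, and the intervals leave room only for changes well below those of Tgfa, Areg and Btc. Nrg1, which encodes neuregulin 1, was measured at 304.5, 256 and 235.6 in Rnf40+/+ and at 238.6, 234.8 and 197.3 in Rnf40-/- MEFs. Its libraries also overlapped, and the log2 fold change was -0.24 (95% interval -0.53 to 0.04, adjusted p = 0.151, limma).

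The other receptor genes did not pass the test. Erbb2 was measured at 587.6, 572.1 and 672.4 normalized counts in Rnf40+/+ and at 587.3, 559.4 and 578.8 in Rnf40-/- MEFs, and its log2 fold change was -0.08 (95% interval -0.27 to 0.11, adjusted p = 0.462, limma). On the opposite strand Erbb2 overlaps 1810046J19Rik, which has its own row in the table. The strand setting of the counting is not given in the sources used here, so that reads of this pair may not have been told apart. Egfr likewise overlaps Gm17664 and E230015J15Rik on the opposite strand, and Nrg1 overlaps Gm17443. These have no row under their symbols, so their reads may have been counted for Egfr and Nrg1. Erbb3, the neuregulin receptor whose kinase is weak, was near the detection limit, at 14.3, 7.14 and 12.0 in Rnf40+/+ and at 11.2, 31.3 and 3.78 in Rnf40-/- MEFs. The spread of the Rnf40-/- libraries, from 4 to 30 reads, covered the whole Rnf40+/+ range. With this spread between libraries, a difference of the size found for Egfr or Btc was not detectable. The log2 fold change of Erbb3 was 0.07 (SE 0.62, 95% interval -1.28 to 1.43, adjusted p = 0.934, limma). It was -0.62 without the second Rnf40-/- library and -0.19 without the second Rnf40+/+ library.

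**Figure D2:**
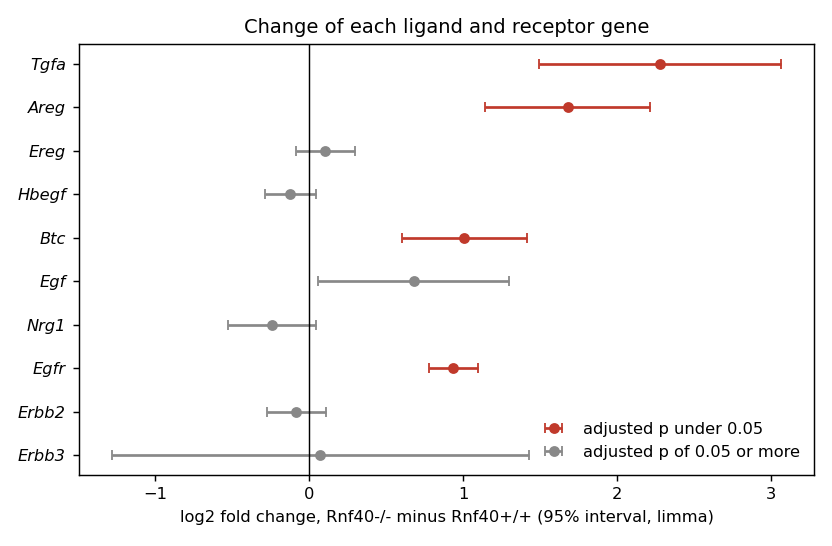
Log2 fold change of each member (x axis, Rnf40-/- minus Rnf40+/+, on log2 of the normalized count plus 1) with its 95% interval from limma, 3 libraries per genotype. Red marks an adjusted p under 0.05: Tgfa at 2.28, Areg at 1.68, Btc at 1.01 and Egfr at 0.94, while the interval of Erbb3 reaches from -1.28 to 1.43.

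To compare levels between genes, the normalized counts were divided by the summed length of all annotated exons of a gene in kb. On this scale the order of the ligand genes in Rnf40+/+ MEFs was Hbegf (720 ± 58.0), Ereg (188 ± 20.8), Nrg1 (82.4 ± 11), Areg (29.7 ± 7.29), Btc (15.9 ± 0.316), Tgfa (5.23 ± 2.59) and Egf (4.94 ± 1.38) (SD, n = 3). The libraries of Tgfa and Egf overlapped, and the other neighbours did not. In Rnf40-/- MEFs the order was Hbegf (661 ± 35.5), Ereg (202 ± 5.03), Areg (96.4 ± 19.5), Nrg1 (69.4 ± 7.08), Btc (32.4 ± 2.34), Tgfa (24.1 ± 3.26) and Egf (7.87 ± 0.725). The mean of Areg was thus above that of Nrg1, although their libraries overlapped (74.0 to 109.7 against 61.3 to 74.1 per kb), and the libraries of the other neighbours did not overlap. With the longest annotated transcript as the length, which was chosen after seeing the data, Nrg1 stayed above Areg in Rnf40-/- MEFs, at 106.3 against 96.4 per kb.

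The 3 ligand genes that rose were a small part of the summed ligand level per kb. Areg made up 2.82% of it in Rnf40+/+ and 8.8% in Rnf40-/- MEFs, Btc 1.53% and 2.97%, and Tgfa 0.489% and 2.21%, while Hbegf made up 68.8% and 60.5%. The summed ligand level was 1045, 1134 and 958 per kb in Rnf40+/+ and 1098, 1052 and 1127 in Rnf40-/- MEFs, and the groups overlapped (exact two-sided permutation test, p = 0.6, n = 3 each). The summed receptor level was 278, 288 and 283 per kb in Rnf40+/+ and 419, 443 and 416 in Rnf40-/- MEFs, without overlap and 1.51-fold higher in the mean (exact two-sided permutation test, p = 0.1, the smallest that 3 libraries against 3 allow). Of the receptor level, Egfr made up 57.9% and 73.5%, Erbb2 41.4% and 25.9%, and Erbb3 0.658% and 0.59%. The ratio of Egfr to Erbb2 per kb was 1.44, 1.61 and 1.18 in Rnf40+/+ and 2.7, 3.08 and 2.74 in Rnf40-/- MEFs (exact two-sided permutation test, p = 0.1, again the smallest possible). The summed receptor level and this ratio follow the rise of Egfr, so their tests add no evidence beyond it.

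**Figure D3:**
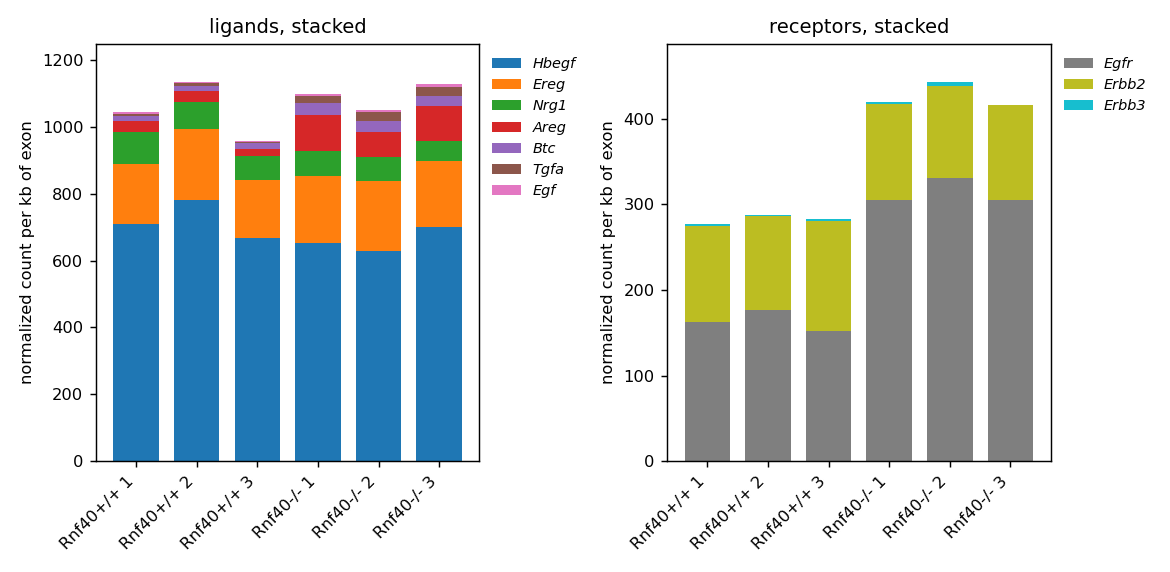
Normalized count per kb of exon of the ligand genes (left) and receptor genes (right), stacked for each of the 6 libraries. Hbegf makes up 68.8% of the ligand level in Rnf40+/+ and 60.5% in Rnf40-/- MEFs, and the rise of Egfr lifts the summed receptor level from 282.9 to 426.3 per kb in the mean.

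Among the members, 3 ligand genes lie in 1 cluster on chromosome 5 of mm9. Ereg spans chr5:91503643-91522675 and Areg chr5:91568641-91577458, both on the plus strand, and Btc spans chr5:91786287-91831939 on the minus strand; the end of Ereg and the start of Areg are 46.0 kb apart. Areg and Btc rose and Ereg, which lies next to Areg, did not pass the test. The ratio of Areg to Ereg in normalized counts thus went from 0.0457 ± 0.00947 to 0.139 ± 0.0308 (SD, n = 3 each). An exact two-sided permutation test of this ratio gave p = 0.1, the smallest possible, and adds no evidence beyond the values of Areg and Ereg themselves. Epgn, the gene of epigen at the other end of the cluster (chr5:91456490-91464241), was too low to be tested. The cluster itself with 250 kb on each side holds 10 genes of the table, of which 6 were tested. Of these, 4 were higher, 1 was lower and 1, Ereg, did not pass, beside the 23.3% higher and 24.1% lower of all genes. The higher genes include the members Areg and Btc, so this count is no separate evidence on the neighbourhood. The genes of the window that are no members were looked up after values were seen. Those tested were Cxcl1, a neutrophil chemokine gene, with a log2 fold change of 1.15 (adjusted p = 0.00107, limma), Parm1 with 0.63 (adjusted p = 0.000397) and Mthfd2l, a gene of folate metabolism, with -0.76 (adjusted p = 0.00061). Of the other members, Tgfa spans chr6:86145420-86225151 (plus strand), Egf chr3:129380493-129458240 (minus), Nrg1 chr8:32928500-33119581 (minus), Egfr chr11:16652206-16818161 (plus), Erbb2 chr11:98273784-98299030 (plus) and Erbb3 chr10:128004579-128026708 (minus).

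The ligands and the receptor outside the members were low. Nrg4, which overlaps Fbxo22 on the opposite strand, was measured at 64.5, 38.8 and 57.5 normalized counts in Rnf40+/+ and at 76.5, 76.2 and 52.9 in Rnf40-/- MEFs (log2 fold change 0.36, adjusted p = 0.255, limma). Nrg2 was at 70.5, 12.2 and 11.2 in Rnf40+/+ and at 39.8, 20.9 and 14.2 in Rnf40-/- MEFs, where the first Rnf40+/+ library was the highest of all. Its direction depended on the method, since limma gave a log2 fold change of 0.08 (adjusted p = 0.929), edgeR -0.27 and DESeq2 -0.30. Epgn, Nrg3 and Erbb4 had too few reads for the test. Epgn lay between 0 and 7.99 normalized counts. Nrg3, another neuregulin gene, was at 7.17, 5.10 and 3.19 in Rnf40+/+ and at 1.02, 1.04 and 1.89 in Rnf40-/- MEFs, without overlap, and with no filter on low genes limma gave it a log2 fold change of -1.38 (adjusted p = 0.0525). Erbb4, the other receptor for neuregulin 1 and betacellulin, was at 3.58, 0 and 0.799 in Rnf40+/+ and at 7.14, 8.35 and 6.61 in Rnf40-/- MEFs. Each Rnf40-/- library was above each Rnf40+/+ library, at 8 reads or fewer in any of them, and without that filter limma gave Erbb4 an adjusted p of 0.0183.

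Of 54 further genes of ERBB signalling, these low ones included, 51 were tested, and 13 were higher, 11 were lower and 27 did not pass. These are 25.5% and 21.6% of those tested, close to the 23.3% and 24.1% of all genes, against which the counts of the single lists are also to be read. Their median log2 fold change was 0.09. Among the 9 sheddases and cofactors, which release the ligands, 4 were higher and 3 lower. Adam17, the main sheddase of TGFα and amphiregulin, was higher, at 1162, 1123 and 1013 normalized counts in Rnf40+/+ and 1751, 1825 and 1664 in Rnf40-/- MEFs (log2 fold change 0.67, adjusted p = 1.88e-05, limma), and Adam10, the main sheddase of betacellulin, was higher as well (0.60, adjusted p = 8.22e-06). Both were named after their values were seen. The 3 largest changes of this list were falls, of Adam8 (log2 fold change -0.75, adjusted p = 0.00459), of Adam19 at 42.7% of its Rnf40+/+ mean (log2 fold change -1.23, adjusted p = 7.28e-08) and of Adam12, a protease that can release HB-EGF, at 47.2% (log2 fold change -1.08, adjusted p = 1.07e-06).

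Among 9 receptor inhibitors and ubiquitin ligases 1 was higher and 2 were lower. Errfi1, which encodes the EGFR kinase inhibitor MIG6, fell from 1415, 1529 and 1258 normalized counts to 830, 699 and 705 (log2 fold change -0.91, SE 0.0936, adjusted p = 9.91e-06, limma). The groups did not overlap, and Errfi1 was at 53.2% of its Rnf40+/+ mean, whereas Lrig1, a membrane protein that lowers ERBB levels, was higher (log2 fold change 0.34, adjusted p = 0.0013). Rnf41, a ubiquitin ligase for ERBB3, was lower (-0.32, adjusted p = 0.00265).

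Of the 14 adaptors and direct effectors, 3 were higher and 3 lower. The docking protein gene Gab1 was higher (log2 fold change 0.82, adjusted p = 4.67e-06, limma), and the adaptor gene Shc1 (-0.77, adjusted p = 1.34e-06) and the kinase gene Src (-0.55, adjusted p = 4.02e-05) were lower. Of 10 genes from RAS to ERK, 3 were higher and 3 lower. Nras, a RAS gene, fell from 3140, 3084 and 2830 normalized counts to 1385, 1459 and 1404 (log2 fold change -1.09, adjusted p = 1.65e-07), the kinase gene Braf rose (0.69, adjusted p = 3.2e-05) and Map2k2 fell (-0.37, adjusted p = 0.00868). Of 7 genes from PI3K to AKT, 2 were higher and none was lower, and both encode catalytic subunits of PI3K, Pik3cb (0.96, adjusted p = 0.000127) and Pik3ca (0.52, adjusted p = 4.57e-05). The changes among the sheddases, the inhibitors, the adaptors and the RAS to ERK genes thus went in both directions.

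**Figure D4:**
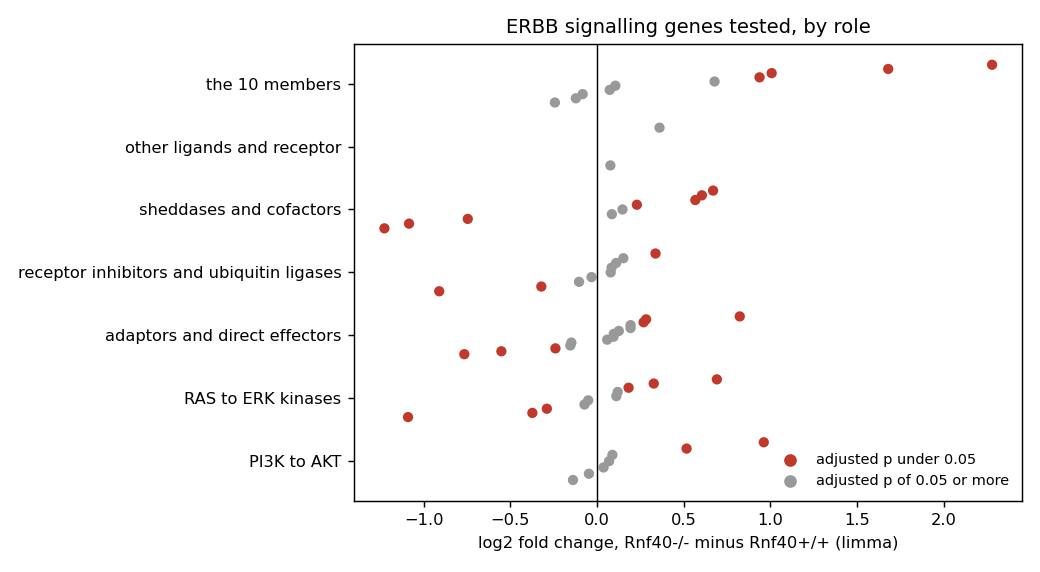
Log2 fold change (x axis, Rnf40-/- minus Rnf40+/+, limma) of the 10 members and of the 51 other ERBB signalling genes tested, 1 point per gene and 1 row per role. Red marks an adjusted p under 0.05; Tgfa at 2.28 and Areg at 1.68 lie farther from 0 than any gene of the other lists, where the values run from -1.23 to 0.96.

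Markers of proliferation and of fibroblasts were mostly lower in Rnf40-/- MEFs, while those of other cell types changed in part, in both directions, or did not pass. All 6 proliferation genes (Mki67, Top2a, Ccnb1, Cdk1, Aurka, Bub1) were lower, with a summed level of 3089 to 3791 normalized counts in Rnf40+/+ and 469.3 to 545.5 in Rnf40-/- libraries. Of 8 fibroblast genes 6 were lower, and their sum was 348200 to 406500 against 181500 to 195300. Of 5 endothelial genes Pecam1, Cdh5 and Kdr were higher and Emcn was lower, with sums of 138.2 to 279.5 against 225.3 to 315.2. These ranges overlapped only through the first Rnf40+/+ library, where Tek was at 114.6 against 11.2 and 16.0. Of 7 macrophage genes 2 were higher and 2 lower, with sums of 5041 to 9132 against 3278 to 3618, the highest being the third Rnf40+/+ library. Epithelial cells are a known source of TGFα, amphiregulin and betacellulin. The 8 epithelial genes summed to 36.7 to 119.4 normalized counts in Rnf40+/+ and 47.2 to 80.6 in Rnf40-/- libraries, the highest being the first Rnf40+/+ library. None of the 3 tested passed, and Cdh1 lay at 1.89 to 7.14. Of the epithelial genes too low to be tested, Trp63 was at 3.58, 2.04 and 2.40 in Rnf40+/+ and at 15.3, 21.9 and 7.55 in Rnf40-/- libraries. Epcam was at 1.60 or less and at 4.08 to 8.50. With no filter limma gave Trp63 and Epcam adjusted p-values of 0.00766 and 0.01. In that fit Krt8 had a log2 fold change of -0.90 (adjusted p = 0.51) and Cdh1 of 0.0025 (adjusted p = 0.999). Krt15 lay at 0 to 8.36. The epithelial genes thus did not rise as a list. Of 6 Schwann cell genes, whose cells express Erbb3, 4 were tested and 1 (S100b) was higher, with sums of 99.8 to 137.3 against 158.6 to 176.4. Of the neuronal genes 1 was tested and did not pass (sums of 1280 to 2824 against 1292 to 1497, the highest being the first Rnf40+/+ library), and of the muscle genes Des was lower (sums of 117.4 to 432.3, again highest in that library, against 29.2 to 49.1) and Myod1 was at 0 in every library. The part of these shifts in the values of the ligand and receptor genes was not tested.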

How the data were processed

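RNA-seq libraries of 3 Rnf40+/+ and 3 Rnf40-/- samples of MEFs were analysed. They were made with a strand-specific kit from total RNA. Mapping to the mouse transcriptome (mm9) and normalization with DESeq were done by the authors, and the submitters' processing notes name Bowtie2 2.1.0 and DESeq 1.14.0; the counting tool is not given in the sources used here. As deposited, each signal value equals the read count of the gene over the size factor of the library. Divided by the smallest positive value of their library, 100% of the values came out whole within 0.01, which gave back the reads.

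The test was limma 3.58.1 (lmFit and trended eBayes) with genotype as the only term, on the log2 scale after adding 1 to the normalized count, after filterByExpr of edgeR 4.0.16 on the recovered reads, and with Benjamini-Hochberg adjustment over 16378 genes; 7410 of 29955 genes had no read. For low genes the fold change depends on the pseudocount, here 1. Means carry the SD over 3 libraries, and an exact permutation test of 3 against 3 cannot give a p below 0.1. No pair of libraries was a duplicate.

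Every member and Rnf40 are named, every other ligand and receptor gene, and the 3 genes with the largest change among those past the threshold in each further list. The members and lists were chosen with earlier results of these data known. Adam17 and Adam10 were named beside the rule. A gene of the lists is not reported here and is in none of their counts. Hras was read from its older symbol Hras1. Alternatives were edgeR and DESeq2 1.42.0 on the recovered reads, upper-quartile normalization, other filters and pseudocounts, a replicate block, each library left out and the criteria of the study. The tests were tried on simulated data. Positions are of mm9, exon lengths of its GENCODE annotation, and promoters are of RefSeq. R 4.3.3 and Python 3.11.15 with scipy 1.17.1 were used. The histone ChIP-seq of the study was not analysed here.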

Additional observations from a re-analysis of the deposited data

How the results depend on the processing

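The calls of Tgfa, Areg, Btc and Egfr kept their direction and stayed past the threshold under all 15 alternatives that gave them a fold change, with log2 fold changes of 1.81 to 2.58 for Tgfa and, with each library left out in turn, 1.46 to 1.86 for Areg, 0.97 to 1.07 for Btc and 0.88 to 0.99 for Egfr. Leaving out libraries gave 4 to 5 members higher, the fifth being Egf without Rnf40+/+ replicate 1 (log2 fold change 0.88, adjusted p = 0.0282). Erbb3 ranged from -0.62 to 0.76 with a library left out and changed sign without Rnf40+/+ replicate 2 (-0.19) and without Rnf40-/- replicate 2 (-0.62), was 0.46 with edgeR and 0.47 with DESeq2, and was removed by the filters on 10 reads in every library and on a mean above 15. The criteria of the study (unadjusted p under 0.05, mean above 15, absolute log2 fold change above 1) called 696 genes higher and 934 lower in place of 3809 and 3955, 3 members higher, and 0 other ERBB signalling genes higher and 3 lower in place of 13 and 11, since the minimum fold change removes small changes. With the replicate number as a replicate block, 4 members were higher and none was lower, and 4021 genes were higher and 4196 lower; the numbers did not pair the libraries, since deviations of same-numbered libraries correlated at 0.0118 to 0.0212. On the recovered reads, edgeR called 3857 genes higher and 3940 lower and DESeq2 3563 and 3726, and both called 4 members higher and none lower. The scaling moved the median of all genes by at most 0.0041 on the log2 scale. Members with under 30 reads per library in Rnf40+/+, such as Tgfa and Erbb3, are the least precise, and 3 libraries per genotype limit every test.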
